A study of Mus musculus with 13 samples.

Results

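A set of 38 genes of G2 and mitosis, taken from a list of cyclins, spindle checkpoint, kinetochore, kinesin and cytokinesis genes, was followed through bulk RNA-seq libraries of mouse haematopoietic stem cells (HSCs). All 38 were found by symbol among the 24015 genes of the count table, and their level in each library was expressed as counts per 1000000 gene counts (CPM). The cells were the donor progeny of single Vwf+ HSCs transplanted into mice, recovered from the bone marrow after a reconstitution followed for 16 weeks. Every library was made from 100 cells of strain C57BL/6 with the sort phenotype LSKFlt3-CD150+CD48-CD45.2+Gata1-, so Flt3 and CD48 protein and the expression of Gata1 were selected against in all 3 groups. The groups are named by the blood that the transplanted cell had made: 4 MUL-HSC libraries from multilineage recipients, 6 PEM-HSC libraries from PEM-restricted recipients and 3 PLT-HSC libraries from P-restricted recipients. Whether the replicates of a group came from different recipients is not labelled. The p-values below therefore cover the spread among these 13 libraries alone, some of which may be technical.

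The libraries held between 16371921 and 41367057 gene counts each and detected 11233 to 12310 genes. All 10 HSC marker genes listed had counts in each of the 13 libraries. Spike-in RNAs of the ERCC set made up 0.0191% to 0.0612% of counts. A count of 0 allows a level of up to 3 counts, which is 0.183 CPM in the shallowest library and 0.0725 CPM in the deepest.

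Entry into mitosis is driven by CDK1 bound to its B-type cyclins, and exit by the anaphase-promoting complex (APC/C), a ubiquitin ligase that destroys those cyclins. The genes of this programme are transcribed mainly in G2 and mitosis, so their RNA is used as a sign of dividing cells. HSCs of adult marrow are known as mostly quiescent, with few cells in division at any time. In libraries of pooled cells, fewer dividing cells and less RNA per dividing cell cannot be told apart.

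The set as a whole differed mostly between libraries of the same group. Its summed level was 2045, 2507, 521 and 1551 CPM in MUL-HSC replicates 1 to 4, a mean of 1656 ± 852 CPM (SD, n = 4). In PLT-HSC replicates 1 to 3 the sum was 253, 384 and 2445 CPM, a mean of 1027 ± 1229 CPM (SD, n = 3). The PEM-HSC sums ran from 582 to 3421 CPM with a median of 1279 and a mean of 1519 ± 987 CPM (SD, n = 6). Each group thus held a library with high and a library with low levels, and the 3 groups overlapped. The highest sum was 4.81 times the lowest in MUL-HSC, 5.88 times in PEM-HSC and 9.67 times in PLT-HSC.

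Members without a count were most frequent in PLT-HSC replicate 1 and MUL-HSC replicate 3. In PLT-HSC, 15, 5 and 0 of the 38 members had no count in replicates 1 to 3, against 8.96%, 8.90% and 7.004% of the 12536 genes that passed the filter on low counts. MUL-HSC replicate 3 had 14 members at 0 (10.9% of genes tested), while the other MUL-HSC libraries had 0 to 2. Of the PEM-HSC libraries, replicates 2 and 6 had 6 and 5 members at 0 (10.01% and 8.72% of genes tested) and the others 0 to 2. In these PEM-HSC libraries and in PLT-HSC replicate 2 the number was a few genes above that share. At the other end, all 38 members stood at 10 CPM or more in PEM-HSC replicate 4 and 37 in PLT-HSC replicate 3, against 9 in PLT-HSC replicate 1.

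**Figure D1:**
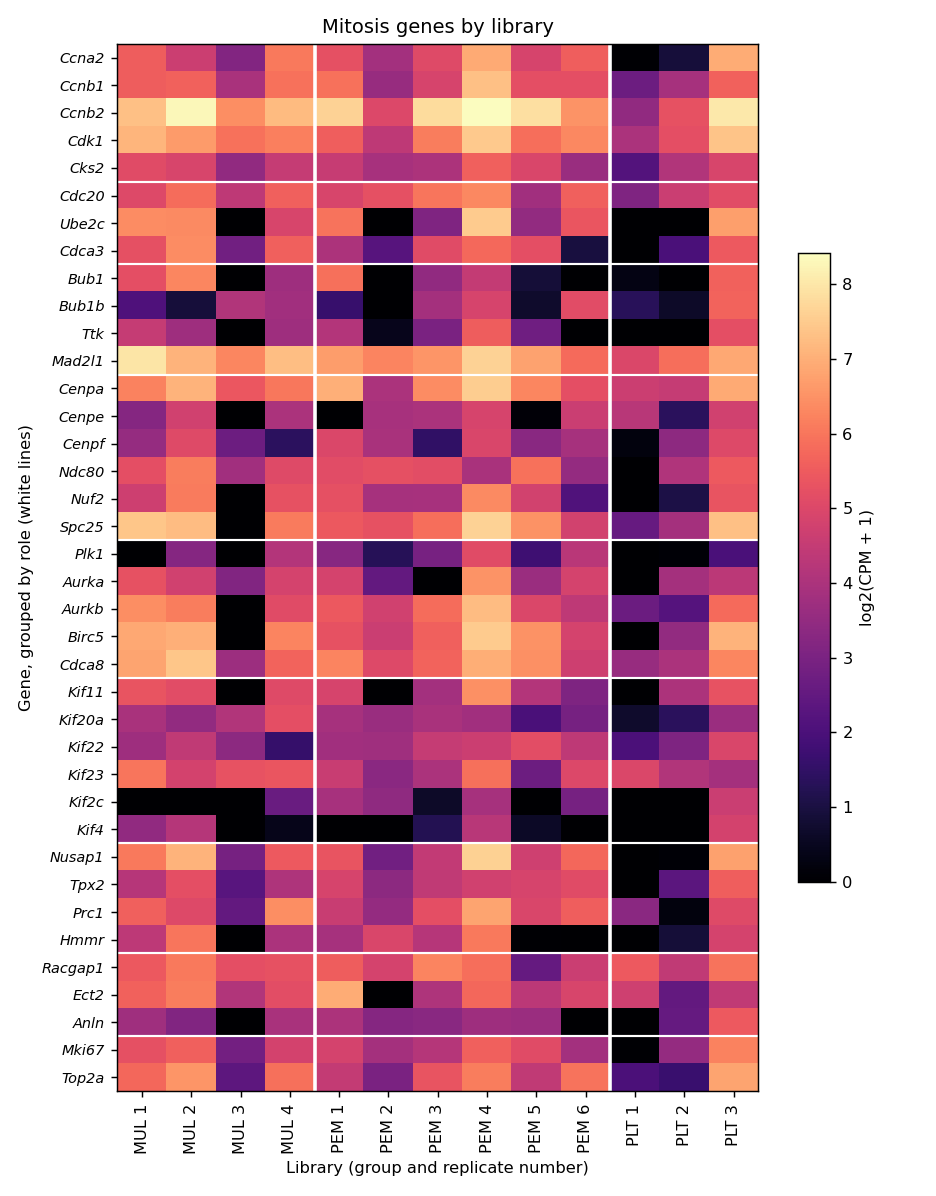
Level of each mitosis gene (one row per gene, ordered by role) in each of the 13 libraries (columns, by group and replicate), as log2(CPM + 1) on a colour scale. Low levels are dark and high levels are pale. PLT-HSC replicates 1 and 2 and MUL-HSC replicate 3 are dark over most rows, and PEM-HSC replicate 4 and PLT-HSC replicate 3 are pale over most rows.

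In the values by gene that follow, libraries are given in replicate order for MUL-HSC and PLT-HSC, and as the lowest, median and highest for the 6 PEM-HSC libraries. In each role, the 3 members with the highest mean CPM are shown. Levels of different genes are compared only after division by transcript length, as CPM per kilobase. On that scale Ccnb2 (107), Cenpa (85.3) and Spc25 (58.0) were highest, and Kif4 (1.15), Cenpf (1.33) and Cenpe (1.71) lowest, in the mean over the 13 libraries.

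The cyclins and CDK1 come first. Ccnb2 encodes cyclin B2, a partner of CDK1. Ccnb2 was at 157, 317, 84.5 and 147 CPM in MUL-HSC, at 31.03 to 340.3 CPM (median 211) in PEM-HSC and at 10.2, 37.6 and 261 CPM in PLT-HSC. Cdk1 encodes the kinase itself. Cdk1 was at 138, 99.3, 60.2 and 70.8 CPM in MUL-HSC, at 20.03 to 176 CPM (median 63.6) in PEM-HSC and at 15.03, 35.8 and 167 CPM in PLT-HSC. Ccnb1 encodes cyclin B1, the partner needed for entry into mitosis. Ccnb1 was at 45.1, 48.7, 14.7 and 60.00 CPM in MUL-HSC, at 11.1 to 158 CPM (median 36.2) in PEM-HSC and at 5.51, 14.00 and 48.5 CPM in PLT-HSC. All of these genes were lowest in PLT-HSC replicate 1 and in MUL-HSC replicate 3 within their groups, and PLT-HSC replicate 3 lay inside or above the MUL-HSC range. The 5 genes of this role, with Ccna2 (cyclin A2) and Cks2 (a small CDK-binding subunit), summed to 34.3, 105 and 628 CPM in PLT-HSC and to 420, 518, 177 and 366 CPM in MUL-HSC.

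Another 3 members belong to mitotic exit and entry around the APC/C. Ube2c encodes the ubiquitin-conjugating enzyme that starts chains on APC/C substrates. Ube2c was at 83.5, 82.05, 0 and 29.1 CPM in MUL-HSC, at 0 to 181 CPM (median 25.5) in PEM-HSC and at 0, 0 and 105 CPM in PLT-HSC. Cdc20 encodes the APC/C activator of metaphase. Cdc20 was at 31.8, 55.4, 20.2 and 47.8 CPM in MUL-HSC, at 12.97 to 78.7 CPM (median 42.2) in PEM-HSC and at 7.62, 23.6 and 34.5 CPM in PLT-HSC. Cdca3 encodes a promoter of mitotic entry. Cdca3 was at 36.9, 82.7, 6.05 and 47.3 CPM in MUL-HSC, at 0.980 to 52.99 CPM (median 24.5) in PEM-HSC and at 0, 2.98 and 43.8 CPM in PLT-HSC. Ube2c had no count in 4 libraries (MUL-HSC 3, PEM-HSC 2, PLT-HSC 1 and 2), and Cdc20 had counts in all 13. The Cdc20 levels of the 3 PLT-HSC libraries lay closer together than those of either other gene.

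The spindle checkpoint, which holds the APC/C until chromosomes are attached, was represented by 4 genes. Mad2l1 was at 251, 136, 77.9 and 153 CPM in MUL-HSC, at 54.2 to 197 CPM (median 98.2) in PEM-HSC and at 30.2, 57.3 and 116 CPM in PLT-HSC. Mad2l1 encodes the checkpoint inhibitor of Cdc20 and had counts in every library, with PLT-HSC replicate 1 lowest of the 13. Bub1 was at 35.9, 78.2, 0 and 12.3 CPM in MUL-HSC, at 0 to 59.3 CPM (median 5.39) in PEM-HSC and at 0.241, 0 and 49.2 CPM in PLT-HSC. Bub1b was at 3.24, 0.888, 16.4 and 12.9 CPM in MUL-HSC, at 0 to 34.6 CPM (median 7.81) in PEM-HSC and at 1.52, 0.576 and 49.4 CPM in PLT-HSC. Bub1 and Bub1b encode checkpoint kinases or kinase-like proteins of the kinetochore. Bub1b went against the common order in MUL-HSC, where replicate 3 was highest rather than lowest. Ttk, the kinase that recruits the checkpoint, had no count in MUL-HSC replicate 3, in PEM-HSC replicate 6 or in PLT-HSC replicates 1 and 2, and reached 36.0 CPM in PLT-HSC replicate 3.

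A group of 6 members builds the kinetochore and centromere. Cenpa encodes the histone H3 variant of centromeres, and Spc25 and Ndc80 encode parts of the NDC80 complex that binds microtubules. Spc25 was at 171, 151, 0 and 67.01 CPM in MUL-HSC, at 26.3 to 200.4 CPM (median 50.1) in PEM-HSC and at 4.93, 13.4 and 159.9 CPM in PLT-HSC. Cenpa was at 74.1, 134, 41.8 and 64.96 CPM in MUL-HSC, at 15.01 to 184 CPM (median 80.2) in PEM-HSC and at 24.1, 22.1 and 121 CPM in PLT-HSC. Ndc80 was at 36.00, 68.3, 12.8 and 32.7 CPM in MUL-HSC, at 10.6 to 59.96 CPM (median 34.9) in PEM-HSC and at 0, 16.1 and 43.04 CPM in PLT-HSC. Spc25 was highest in PEM-HSC replicate 4 and had no count in MUL-HSC replicate 3. The remaining genes of this role, Nuf2 (NDC80 complex), Cenpe (a kinetochore motor) and Cenpf (a kinetochore protein), ran from 0 to 82.0 CPM.

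The mitotic kinases and the chromosomal passenger complex, which corrects wrong attachments and directs cytokinesis, gave 5 members. Birc5 encodes survivin, Cdca8 encodes borealin and Aurkb encodes Aurora B, the kinase of that complex. Birc5 was at 117, 129, 0 and 75.6 CPM in MUL-HSC, at 23.3 to 183 CPM (median 42.7) in PEM-HSC and at 0, 10.2 and 135 CPM in PLT-HSC. Cdca8 was at 112, 170.0, 11.8 and 49.5 CPM in MUL-HSC, at 24.6 to 124 CPM (median 63.4) in PEM-HSC and at 11.1, 14.8 and 78.3 CPM in PLT-HSC. Aurkb was at 85.9, 69.00, 0 and 33.5 CPM in MUL-HSC, at 20.2 to 152 CPM (median 36.3) in PEM-HSC and at 5.34, 3.69 and 55.3 CPM in PLT-HSC. MUL-HSC replicate 3 had no count for Birc5 or Aurkb, and PLT-HSC replicate 3 was the highest of its group for all 3, while Aurkb was lower in PLT-HSC replicate 2 than in replicate 1. The 5 genes of the role, with Aurka (the Aurora kinase of spindle poles) and Plk1 (Polo-like kinase), summed to 16.4, 42.2 and 290 CPM in PLT-HSC and to 353, 403, 19.7 and 203 CPM in MUL-HSC. For Plk1 the PLT-HSC libraries held 0, 0.0678 and 2.96 CPM and the MUL-HSC libraries 0, 8.53, 0 and 16.7 CPM, so the groups overlapped.

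Kinesins move chromosomes and slide spindle microtubules apart. Kif23 was at 62.5, 27.01, 38.7 and 40.4 CPM in MUL-HSC, at 5.60 to 59.01 CPM (median 18.9) in PEM-HSC and at 30.9, 16.4 and 13.6 CPM in PLT-HSC. Kif11 was at 39.7, 34.1, 0 and 33.2 CPM in MUL-HSC, at 0 to 86.1 CPM (median 14.97) in PEM-HSC and at 0, 15.1 and 38.8 CPM in PLT-HSC. Kif22 was at 12.3, 20.3, 9.35 and 2.03 CPM in MUL-HSC, at 12.6 to 35.00 CPM (median 20.8) in PEM-HSC and at 3.03, 7.42 and 29.6 CPM in PLT-HSC. Kif11 encodes the motor that separates the spindle poles and Kif22 a motor on chromosome arms. Kif23 encodes the motor part of centralspindlin, the complex that marks the division plane, and it did not follow the other kinesins: PLT-HSC replicate 3 was the lowest of its group. Kif4 and Kif2c had no count in either of PLT-HSC replicates 1 and 2, and stood at 26.9 and 23.5 CPM in replicate 3.

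A further 4 members encode proteins of spindle microtubules. Nusap1 bundles microtubules around chromosomes, Prc1 bundles those of the spindle midzone, and Tpx2 nucleates microtubules and activates Aurora A. Nusap1 was at 66.2, 136, 6.60 and 43.2 CPM in MUL-HSC, at 6.02 to 196 CPM (median 32.5) in PEM-HSC and at 0, 0.0678 and 108 CPM in PLT-HSC. Prc1 was at 47.5, 31.8, 4.70 and 84.5 CPM in MUL-HSC, at 10.6 to 113 CPM (median 32.9) in PEM-HSC and at 9.06, 0.169 and 32.5 CPM in PLT-HSC. Tpx2 was at 17.5, 36.01, 3.85 and 15.7 CPM in MUL-HSC, at 9.38 to 33.4 CPM (median 26.9) in PEM-HSC and at 0, 4.13 and 46.95 CPM in PLT-HSC. Nusap1 had 0 and 2 counts in PLT-HSC replicates 1 and 2, both under the floor of 3 counts. PLT-HSC replicate 3 was the highest of its group for each of these genes, and MUL-HSC replicate 3 the lowest of its own.

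Of the 3 cytokinesis genes, Ect2 departed from the order of most members in PLT-HSC and the other two were highest in replicate 3. Racgap1 encodes the partner of Kif23 in centralspindlin, Ect2 the exchange factor that this complex recruits, and Anln encodes anillin, a scaffold of the contractile ring. Racgap1 was at 42.7, 65.8, 36.3 and 37.9 CPM in MUL-HSC, at 4.83 to 76.6 CPM (median 36.7) in PEM-HSC and at 43.4, 20.6 and 62.2 CPM in PLT-HSC. Ect2 was at 48.5, 69.7, 16.6 and 35.5 CPM in MUL-HSC, at 0 to 122 CPM (median 23.9) in PEM-HSC and at 25.1, 4.74 and 20.7 CPM in PLT-HSC. Anln was at 12.7, 7.80, 0 and 14.4 CPM in MUL-HSC, at 0 to 15.3 CPM (median 10.3) in PEM-HSC and at 0, 4.85 and 43.3 CPM in PLT-HSC. Ect2 shared with Kif23 that PLT-HSC replicate 1, not replicate 3, was the highest of its group. The 3 genes summed to 68.5, 30.2 and 126 CPM in PLT-HSC, so the library lowest for most members was not the lowest here.

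The last 2 members coat or untangle chromosomes. Mki67 was at 36.7, 48.1, 6.17 and 26.95 CPM in MUL-HSC, at 13.2 to 47.5 CPM (median 22.6) in PEM-HSC and at 0.0345, 10.7 and 74.4 CPM in PLT-HSC. Top2a was at 52.9, 92.7, 4.21 and 58.2 CPM in MUL-HSC, at 6.98 to 68.8 CPM (median 30.6) in PEM-HSC and at 3.07, 2.13 and 111 CPM in PLT-HSC. Mki67 encodes Ki-67, the surfactant of mitotic chromosomes used as a marker of cycling cells, and Top2a encodes topoisomerase II alpha. Both were highest in PLT-HSC replicate 3 and lowest in MUL-HSC replicate 3 within their groups.

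Ranking the libraries of each group gene by gene gave the same picture. PLT-HSC replicate 3 was the highest of its group for 36 of 38 members, with Kif23 and Ect2 as exceptions, and for 43.2% of the 12536 genes tested. MUL-HSC replicate 3 was the lowest of its group for 31 of 38 members and for 21.3% of genes tested. PEM-HSC replicate 4 was the highest of its group for 27 of 38 members and for 17.4% of genes tested.

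Other measures of these libraries moved with the members in some groups and not in others. PLT-HSC replicate 3 had a spike-in share of 0.0195% against 0.0474% and 0.0475% in replicates 1 and 2, and 12310 detected genes against 11974 and 11914. Its summed level of the 10 HSC markers was 2520 CPM against 3228 and 3498, with none of the 10 at 0. Of the 10, Procr, Slamf1, Mllt3 and Ly6a were lowest in replicate 3 within the group, and the other 6 (Hlf, Mecom, Kit, Ctnnal1, Fgd5 and Esam) were highest there. Procr was at 273, 281 and 94.7 CPM, Ly6a at 834, 1434 and 245 CPM, and Kit at 417, 187 and 647 CPM in PLT-HSC replicates 1 to 3. MUL-HSC replicate 3 had the highest HSC marker sum of its group, 2180 CPM against 1430 to 1929. Slamf1, Hlf, Mllt3, Ly6a and Fgd5 were highest there within the group. Kit was lowest there, at 217 CPM against 280 to 396, and Procr, Mecom, Ctnnal1 and Esam lay between. Cd34 was lowest in that library, at 90.9 CPM against 380 to 555, as were Flt3 and Cd48, while Cd79b was highest, at 165 CPM. PEM-HSC replicate 4 had the lowest spike-in share of its group, 0.0224%. MUL-HSC ran the other way: replicate 2, with the highest sum of members, had the highest spike-in share (0.0612%) and the fewest detected genes (11233) of its group, against 0.0302% and 11565 in replicate 3. PEM-HSC replicate 2, with the lowest sum of members, also had the lowest HSC marker sum of its group, 2117 CPM. The part of these measures in the levels of the mitosis genes was not tested.

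Several defining genes of mature cells were at 0 and others were not. Hba-a1, Hbb-b1 and Ermap (erythroid), Gp6 (platelet), Ltf (neutrophil) and Il7r and Dntt (lymphoid) had no count in any of the 13 libraries. Cd79b, a B-cell receptor gene, stood at 90.5 to 184 CPM and the platelet genes Pf4 and Gp9 at 22.1 to 170.3 and 27.0 to 97.3 CPM over the 13 libraries. The 9 erythroid markers summed to 35.7, 56.8 and 120.1 CPM in PLT-HSC, with 6, 7 and 6 of the 9 at 0, to 16.6 to 43.5 CPM in MUL-HSC and to 19.8 to 144 CPM in PEM-HSC. The 9 neutrophil and granulocyte progenitor markers summed to 360.3, 721 and 190.2 CPM in PLT-HSC, nearly all of it Prtn3 at 357, 719 and 188 CPM. The 8 lymphoid and multipotent progenitor markers summed to 778, 651, 263 and 500.0 CPM in MUL-HSC and to 144, 180.0 and 171 CPM in PLT-HSC, where Cd79b made up 90.5, 149.9 and 105 CPM. The 7 macrophage markers summed to 0 to 14.9 CPM in MUL-HSC, to 9.35 to 81.7 CPM in PEM-HSC and to 20.5 to 45.2 CPM in PLT-HSC. The 7 megakaryocyte and platelet markers summed to 103 to 259.7 CPM in MUL-HSC, to 134 to 236 CPM in PEM-HSC and to 146, 129 and 235 CPM in PLT-HSC.

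The spread between libraries of a group was larger for the members than for the genes tested. As the SD of log2(CPM + 1) over the libraries of a group, it had a median over the members of 1.52 in MUL-HSC, 1.26 in PEM-HSC and 2.46 in PLT-HSC. The corresponding medians over all 12536 genes tested were 0.62, 0.64 and 0.64. In MUL-HSC the members ran from 0.38 (Racgap1) to 3.51 (Spc25), in PEM-HSC from 0.54 (Kif22) to 2.64 (Ube2c) and in PLT-HSC from 0.59 (Kif23) to 3.89 (Ube2c). Of the 38 members, 16, 13 and 25 lay above the 90th percentile of the genes tested. Level was similar, with a median of the mean CPM of 28.3 for members and 26.9 for genes tested.

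One library carried most of this spread in 2 groups. Without MUL-HSC replicate 3 the median SD of the members was 0.62 against 0.56 for genes tested, and without PLT-HSC replicate 3 it was 0.75 against 0.47. Leaving out PEM-HSC replicate 4 left it at 1.12 against 0.63. The biological coefficient of variation that edgeR fitted over the 13 libraries had a median of 1.08 over the members and 0.624 over all genes tested, with Mad2l1 lowest at 0.43 and Kif4 highest at 2.48.

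**Figure D2:**
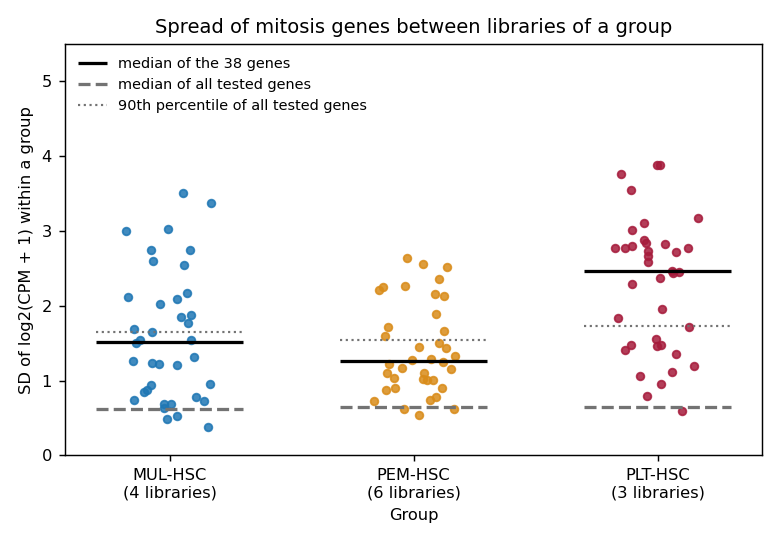
SD of log2(CPM + 1) between the libraries of each group (vertical axis), one point per mitosis gene, with the median of the members and of all genes tested marked. The members' median of 2.46 in PLT-HSC lies above those of 1.52 in MUL-HSC and 1.26 in PEM-HSC, and all lie above the medians of genes tested at 0.62 to 0.64.

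The members varied together from library to library. Pearson's r of each member with the mean of the other members, on log2(CPM + 1) over the 13 libraries, had a median of 0.83 and ran from 0.19 (Kif23) to 0.94 (Nusap1). It was above 0.5 for 31 of 38 members and for 8.55% of the 12498 other genes tested. Within groups, after subtracting each group's mean, the median over the members was 0.84. These values are descriptions, since all genes share the same libraries and their depth. The members with r under 0.5 were Kif23, Cenpe, Racgap1, Bub1b, Kif2c, Kif22 and Ect2, of the kinesin, kinetochore, checkpoint and cytokinesis roles. Ect2 and Kif22 lay near that limit, at 0.49 each, and within groups Kif2c (0.55) and Kif22 (0.51) passed it.

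Among the genes outside the set with the most similar pattern over the 13 libraries were Alg8 (r of 0.94 with the members' mean), Asf1b (0.93), Fbxo5 (0.91) and Lig1 (0.90). Asf1b encodes a histone chaperone, Fbxo5 an inhibitor of the APC/C and Lig1 a DNA ligase of replication. Alg8 encodes a glucosyltransferase of the endoplasmic reticulum. Rfc5, Cks1b, Hmgb2, Pbk and Ncln followed at 0.88 to 0.89.

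Because the members moved together, their promoters were read for 2 sequence motifs known from cell cycle promoters. One is the cell cycle genes homology region, spelled TTTGAA or TTTAAA, and the other is the CCAAT box, and both were searched on both strands. TTTAAA reads the same on both strands, TTTGAA reads TTCAAA on the opposite one, and CCAAT reads ATTGG. Overlapping matches were counted separately, so CCAATTGG, as in Ube2c, holds 2 copies of CCAAT, and matches of different motifs may share letters. The windows run from 250 bases before to 50 bases after each gene's start, in RefSeq on build GRCm38.p6, and 34 of the 38 members had one, the others being Aurkb, Ccna2, Tpx2 and Kif20a.

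The first motif stood in 29 of 34 member windows (85.3%) and in 27.8% of the 27025 windows of all genes. CCAAT stood in 27 of 34 (79.4%) against 37.9%, and at least 2 copies in 20 of 34 (58.8%) against 12.2%. Both motifs stood in 25 of 34 (73.5%) against 10.9%. A match is a run of letters and not a measured binding site.

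The 250 bases before the start are printed for a well expressed member of 6 roles, with matches to either motif in capitals. Only members whose window holds the first motif could be printed, so these examples do not show how frequent it is. Mad2l1 and Nusap1, with the highest mean CPM of their roles, have no match to either motif and were passed over. Ccnb2, Ube2c and Top2a show several CCAAT copies, Spc25 a pair of them close to the start, Racgap1 a single copy, and Birc5 none.
Ccnb2: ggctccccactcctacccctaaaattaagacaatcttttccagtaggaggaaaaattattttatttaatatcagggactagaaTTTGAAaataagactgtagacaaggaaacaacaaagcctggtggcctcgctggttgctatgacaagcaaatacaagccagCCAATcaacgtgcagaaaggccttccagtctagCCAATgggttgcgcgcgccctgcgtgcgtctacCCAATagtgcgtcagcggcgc
Spc25: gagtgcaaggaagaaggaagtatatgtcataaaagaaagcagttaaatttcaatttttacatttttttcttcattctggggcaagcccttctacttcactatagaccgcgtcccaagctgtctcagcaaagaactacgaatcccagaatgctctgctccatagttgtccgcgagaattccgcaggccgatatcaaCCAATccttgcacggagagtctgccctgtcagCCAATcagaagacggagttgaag
Birc5: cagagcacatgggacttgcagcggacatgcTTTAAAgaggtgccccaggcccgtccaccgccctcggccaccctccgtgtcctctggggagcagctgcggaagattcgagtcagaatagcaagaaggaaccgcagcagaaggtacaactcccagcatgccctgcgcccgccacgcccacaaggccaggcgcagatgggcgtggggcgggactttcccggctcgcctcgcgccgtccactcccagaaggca
Ube2c: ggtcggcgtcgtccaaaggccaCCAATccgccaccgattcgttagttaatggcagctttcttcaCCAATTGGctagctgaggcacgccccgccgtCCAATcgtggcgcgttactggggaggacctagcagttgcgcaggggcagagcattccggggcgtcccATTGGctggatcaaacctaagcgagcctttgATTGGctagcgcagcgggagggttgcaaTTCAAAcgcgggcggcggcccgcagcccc
Racgap1: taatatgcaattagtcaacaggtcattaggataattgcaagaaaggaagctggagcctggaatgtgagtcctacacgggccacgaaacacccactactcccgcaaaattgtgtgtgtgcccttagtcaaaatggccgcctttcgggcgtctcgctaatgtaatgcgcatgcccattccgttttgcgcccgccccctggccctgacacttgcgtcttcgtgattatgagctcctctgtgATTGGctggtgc
Top2a: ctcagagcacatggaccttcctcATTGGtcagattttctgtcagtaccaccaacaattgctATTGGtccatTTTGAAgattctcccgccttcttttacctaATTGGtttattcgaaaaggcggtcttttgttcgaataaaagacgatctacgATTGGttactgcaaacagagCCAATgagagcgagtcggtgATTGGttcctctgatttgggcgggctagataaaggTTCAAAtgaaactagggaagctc
Spc25 and Racgap1 each have 1 match to the first motif, which lies after the start and so outside the printed stretch, as does 1 of the 2 matches of Ccnb2. The stretches lie on build GRCm38.p6 at chr9:70421555-70421804 on the minus strand for Ccnb2, chr2:69206214-69206463 on the minus strand for Spc25, chr11:117848987-117849236 on the plus strand for Birc5, chr2:164769679-164769928 on the plus strand for Ube2c, chr15:99651657-99651906 on the minus strand for Racgap1 and chr11:99024190-99024439 on the minus strand for Top2a. In Ccnb2 the CCAAT copies start 87, 54 and 21 bases before the gene's start, and in Ube2c the TTCAAA match starts 29 bases before it.

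Differences between the 3 groups were then tested for each gene with edgeR's quasi-likelihood model over all 13 libraries, with Benjamini-Hochberg adjustment over 12536 genes and a call at an adjusted p under 0.05. All 38 members were among the genes tested. No member was called in PLT-HSC against MUL-HSC, where 0.0479% of genes tested were called, in PEM-HSC against MUL-HSC (0.00798%) or in PLT-HSC against PEM-HSC (0.0%). DESeq2 and limma voom also called 0 members in each comparison. At an unadjusted edgeR p under 0.05 there were 2, 0 and 0 members, against 7.37%, 5.93% and 3.73% of genes tested. For no member were all libraries of a group above or below all of the other: 0 members in each comparison, against 3.04% lower and 3.75% higher of genes tested for PLT-HSC against MUL-HSC, 0.63% and 0.862% for PEM-HSC against MUL-HSC, and 1.06% and 1.1% for PLT-HSC against PEM-HSC.

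In direction, PLT-HSC against MUL-HSC had a negative log2 fold change for 30 of 38 members (47.5% of genes tested), with a median of -0.86 against 0.04 over all genes. PLT-HSC against PEM-HSC had 32 of 38 negative (48.5%) with a median of -0.62 against 0.02, and PEM-HSC against MUL-HSC 21 of 38 (49.3%) with a median of -0.09 against 0.01. The comparisons share libraries and are not independent. Scaling by spike-in totals, which moved the median of all genes to 0.05, 0.13 and -0.10 in the same order, gave member medians of 0.12, -0.13 and 0.17, so that the sign turned in both comparisons with MUL-HSC.

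The members with the smallest p in PLT-HSC against MUL-HSC were Mad2l1, Kif20a and Cdca8. The log2 fold change of Mad2l1 was -1.24 (SE 0.47, with an adjusted p of 0.63 by edgeR), and the PLT-HSC levels of 30.2, 57.3 and 116 CPM overlapped the MUL-HSC range of 77.9 to 251 CPM in 1 library. Kif20a, a kinesin of cytokinesis, had -2.15 (SE 1.02, adjusted p of 0.676 by edgeR), from 14.5, 10.4, 16.3 and 36.0 CPM in MUL-HSC to 0.62, 1.59 and 11.7 CPM in PLT-HSC. For Cdca8 the value was -1.43 (SE 0.79, adjusted p of 0.772 by edgeR).

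In PLT-HSC against PEM-HSC the smallest p-values belonged to Cdc20, Ccnb1 and Plk1, with log2 fold changes of -1.03 (SE 0.57), -1.32 (SE 0.75) and -3.65 (SE 2.20), each with an edgeR adjusted p of 1.0. In PEM-HSC against MUL-HSC they belonged to Kif23 (-0.86, SE 0.55), Mad2l1 (-0.58, SE 0.38) and Kif22 (0.89, SE 0.72), each with an edgeR adjusted p of 0.999. None of these 6 differences was larger than the spread between libraries by this test.

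Leaving out PLT-HSC replicate 3 changed the comparisons with PLT-HSC. Against MUL-HSC all 38 members then had a negative log2 fold change (51.2% of 12996 genes tested), with a median of -2.87, and 19 had an unadjusted edgeR p under 0.05, against 7.97% of genes tested. All 19 were lower in PLT-HSC, as were 3.54% of genes tested. One of them, Nusap1, was called (edgeR adjusted p = 0.0365), among 0.285% of genes. The adjusted p of Nusap1 over the 24 alternatives ran from 0.0365 to 1.0, and this gene was singled out after its values were seen. Against PEM-HSC, 37 of 38 members were negative (53.3%) with a median of -2.90, 19 had an unadjusted edgeR p under 0.05 (4.73%), all lower (2.76%), and 0 members were called (0.0154%). The 2 PLT-HSC libraries kept there are the ones with low members, so the size of these differences rests on which library is left out. Without PLT-HSC replicate 1 the median against MUL-HSC was -0.27, and without replicate 2 it was -0.48.

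In 6 members PLT-HSC replicates 1 and 2 each held at most 3 counts. Nusap1 and Plk1 had 0 and 2 counts, and Ube2c, Ttk, Kif2c and Kif4 had none in either. Against the floor of 3 counts over both libraries, 0.0513 CPM, Ube2c was at least 949-fold lower than the MUL-HSC mean, Ttk at least 226-fold and Kif4 at least 135-fold. These means include MUL-HSC replicate 3, which had no count for any of these 3 genes. For Kif2c no bound is given, since MUL-HSC replicate 4 alone had counts. These bounds cover counting error only, and PLT-HSC replicate 3 is left out of them. With Ube2c, Ttk, Kif4 and also Kif2c set to such bounds the medians stayed at -2.87 and -2.90. All of these bounds lie below the medians, so the step could not raise them and is no check on them.

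**Figure D3:**
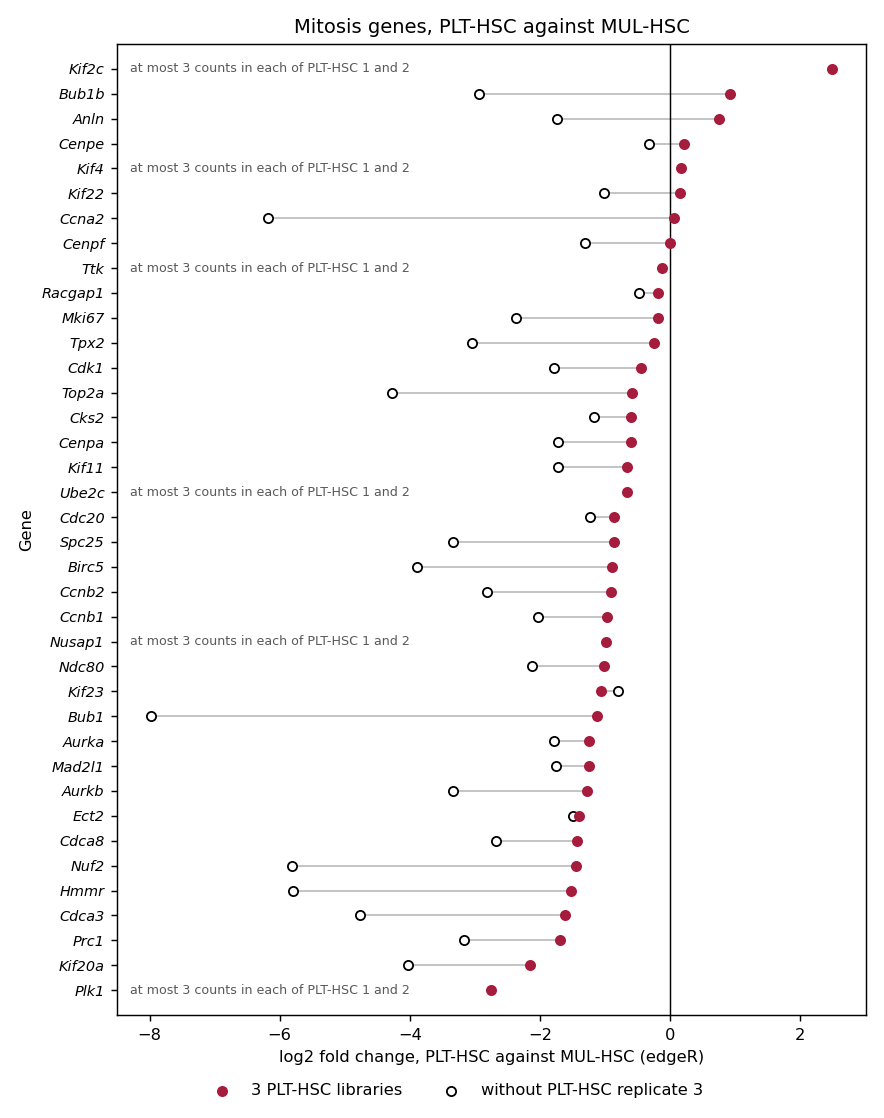
log2 fold change of each mitosis gene in PLT-HSC against MUL-HSC (horizontal axis, edgeR), with all 3 PLT-HSC libraries (filled) and without replicate 3 (open, left out for the 6 genes with at most 3 counts in each remaining library). No filled value was called, the filled median is -0.86 (0.12 under spike-in scaling), and the median without replicate 3 is -2.87.

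Genes of neighbouring cell cycle steps also had their lowest sums in MUL-HSC replicate 3 and in PLT-HSC replicates 1 and 2, with smaller contrasts. A list of other G2 and mitosis genes, of which 70 were tested, summed to 3570, 3696, 1963 and 3091 CPM in MUL-HSC, to 2211 to 4044 CPM in PEM-HSC and to 1420, 1827 and 3836 CPM in PLT-HSC. Bub3, which binds checkpoint proteins, and Smc4, a condensin subunit, were its highest members. Bub3 was at 571, 595, 547 and 604 CPM in MUL-HSC and at 366, 595 and 510 CPM in PLT-HSC. In PEM-HSC the list was highest in replicate 4 and lowest in replicate 2, as the 38 members were. Of the 70, 51 had an r above 0.5 with the mean of the 38 members. No gene of this list was called in any comparison, and 50, 44 and 44 of 70 were negative in PLT-HSC against MUL-HSC, PEM-HSC against MUL-HSC and PLT-HSC against PEM-HSC, with medians of -0.53, -0.19 and -0.26 (-0.03, -0.12 and 0.13 under spike-in scaling, where the last turned sign).

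S phase genes, 41 of them, summed to 6302, 5318, 2595 and 5219 CPM in MUL-HSC, to 2278 to 5283 CPM in PEM-HSC and to 1724, 2314 and 4611 CPM in PLT-HSC. Rfc2, a subunit of the clamp loader, was at 729, 781, 422 and 586 CPM in MUL-HSC and at 197, 270 and 323 CPM in PLT-HSC. The Rfc2 libraries of these 2 groups did not overlap, which 3.04% of genes tested shared in that direction. In the list of S phase genes only Chaf1b did likewise, and the others overlapped. Slbp, next by mean CPM, was at 578, 535, 244 and 340 CPM in MUL-HSC and at 209, 281 and 316 CPM in PLT-HSC. The list had 0 called genes, 35, 36 and 30 of 41 negative, and medians of -0.78, -0.41 and -0.33 in the same order (-0.34, -0.41 and 0.05 under spike-in scaling, where the last turned sign). The S phase order differed from that of the members in the other libraries: PEM-HSC was highest in replicate 3 (5283 CPM, against 4563 in replicate 4) and lowest in replicate 1 (2278 CPM), and MUL-HSC was highest in replicate 1.

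Constitutive APC/C subunits, whose RNA is not bound to a cell cycle phase, followed the order of the members only in part and with smaller contrasts. In PLT-HSC their sum was highest in replicate 3, as for the members, but in MUL-HSC it was lowest in replicate 1. The 13 genes summed to 1339, 1921, 1582 and 1855 CPM in MUL-HSC, to 1450 to 1878 CPM in PEM-HSC and to 1554, 1307 and 1793 CPM in PLT-HSC, with 0 called and medians of 0.02, -0.06 and 0.10 in the same order (0.15, -0.12 and 0.22 under spike-in scaling). The median r with the members was 0.13, and 1 of 13 was above 0.5.

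**Figure D4:**
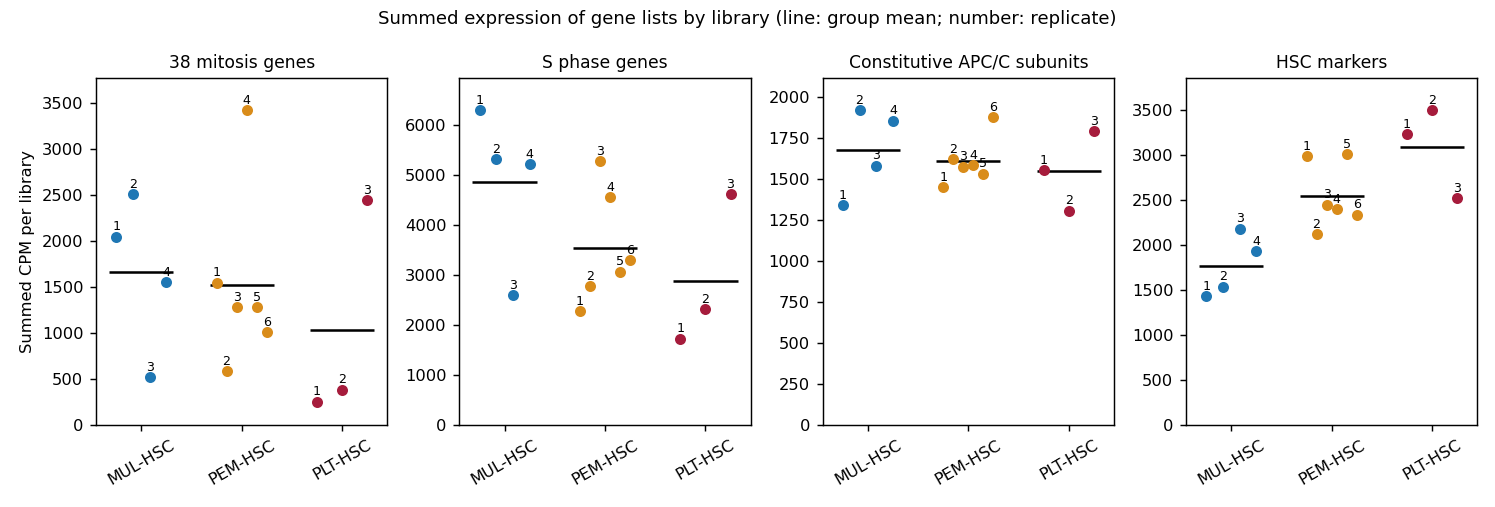
Summed CPM per library (vertical axis) of the mitosis genes, S phase genes, constitutive APC/C subunits and HSC markers, with 1 point per library in each of the 3 groups. PLT-HSC replicate 3 stands at 2445 CPM for the mitosis genes against 253 and 384 CPM in the other PLT-HSC libraries, and the constitutive APC/C subunits stay between 1307 and 1921 CPM in all libraries.

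Some regulators of this programme were near 0. Foxm1 and Mybl2, transcription factors of G2 and mitosis genes, had mean levels of 2.66 and 2.63 CPM over the 13 libraries, and Foxm1 had no count in 7 of them: PLT-HSC replicates 1 to 3, MUL-HSC replicates 2 and 3 and PEM-HSC replicates 5 and 6. The 16 regulators summed to 871 to 1228 CPM in MUL-HSC, to 903 to 1213 CPM in PEM-HSC and to 805 to 1008 CPM in PLT-HSC, with 0 called and medians of -0.28, 0.04 and -0.30 in the same order (-0.43, -0.12 and -0.09 under spike-in scaling).

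A list of 12 G1 genes, made of CDK inhibitors, D-type cyclins and their kinase partners Cdk4 and Cdk6, had 10 genes tested and 0 called, with medians of 0.01, 0.02 and 0.16 in the same order (0.13, -0.11 and 0.29 under spike-in scaling). Cdkn1c encodes p57, an inhibitor known for its part in HSC quiescence. It stood at 31.7, 29.8, 40.4 and 31.8 CPM in MUL-HSC, at 54.1 to 99.5 CPM (median 87.8) in PEM-HSC and at 146, 129 and 49.6 CPM in PLT-HSC. PLT-HSC replicate 3, the library of its group with the most mitosis RNA, had the least Cdkn1c of its group. MUL-HSC replicate 3, with the least mitosis RNA of its group, had the most Cdkn1c there. In PEM-HSC, replicate 4 had the least Cdkn1c and replicate 1 the most, while replicate 2, with the lowest sum of members, had 86.4 CPM. This order did not hold across groups: MUL-HSC replicate 3 lay below PEM-HSC replicate 4 and PLT-HSC replicate 3. Cdkn1c was not named by its mean CPM. No other gene tested in this list was lowest in PLT-HSC replicate 3. The inhibitor gene Cdkn2d was at 5.34, 8.78 and 9.77 CPM in PLT-HSC. Cdk4, with the highest mean CPM of the list, was at 561, 835 and 889 CPM there. In MUL-HSC, Cdkn2c and Ccnd2 were also highest in replicate 3, and the other genes tested were not. Of the 10 HSC markers, 1 was called in PLT-HSC against MUL-HSC: Ctnnal1 rose, from 3.65, 9.88, 12.5 and 16.2 CPM in MUL-HSC to 85.7, 57.1 and 100.4 CPM in PLT-HSC. That call was lost with spike-in scaling in edgeR and with limma voom, which called 0 genes in this comparison (469 and 1095 at an unadjusted p under 0.05).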

How the data were processed

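Polyadenylated RNA of sorted bone marrow cells was made into cDNA with a Smart-seq+ protocol and into Nextera XT libraries, per the labels' protocols. Per the submitters' processing notes, the tools were Trimmomatic, FastQC, STAR and featureCounts and the build mm9. Versions, settings and strand mode are not given in the sources used here. Values that the authors deposited are whole read counts by gene symbol with no normalization. No molecular identifiers are described, so counts include PCR copies, and floors cover counting error only. Reads of overlapping genes and of near-identical copies may be shared.

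Library sizes left out 92 ERCC rows. Counts were fitted with edgeR 4.0.16 in R 4.3.3 (filterByExpr, TMM scaling, robust quasi-likelihood, a term per group over 13 libraries), and fold changes are on the log2 scale with their standard error (SE). Alternatives used DESeq2 1.42.0, limma 3.58.1 (voom), other scalings, filters and covariates, and each library left out. The scripts were tested on simulated data, and recovery of the fold changes was required only at a spread below that of these data. That test therefore does not show how many true changes would be called here. No libraries agreed within sampling noise (chi-square over its degrees of freedom at least 163). CPM used library totals, and a pseudocount of 1 CPM on the log2 scale. Transcript lengths are medians of protein-coding transcripts in GENCODE vM21 (GRCm38), and promoters are from RefSeq GRCm38.p6, matched by symbol; no coordinate was carried between builds.

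The members and lists were chosen with earlier results of these data known. Named members are the 3 with the smallest p in each comparison, and those with values in every library are the 3 with the highest mean CPM in each of 9 roles.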

Additional observations from a re-analysis of the deposited data

Results flagged for a closer look

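Each member and the members' sum were checked in MUL-HSC and PEM-HSC for a library whose gap to its nearest neighbour, divided by the whole range, passed Dixon's limit. Groups of 3, so PLT-HSC, are not tested this way. Of 78 checks, 14 passed. For normally distributed values chance flags about 1 in 20 groups. That rate need not hold here, since the checks used CPM without a log scale, with skew and zeros, and share libraries. PEM-HSC replicate 4 accounted for 11 of the 14, each time as the highest library. Its values were 3421 CPM for the sum of the 38 members (next 1547), 120.3 CPM for Ccna2 (next 46.9), 158 CPM for Ccnb1 (next 59.7), 181 CPM for Ube2c (next 61.2) and 200.4 CPM for Spc25 (next 88.5). Among kinases and motors, Aurka was at 91.1 CPM (next 28.0), Aurkb at 152 CPM (next 55.4), Kif11 at 86.1 CPM (next 28.2) and Kif4 at 18.1 CPM (next 1.34). Nusap1 was at 196 CPM (next 52.0) and Prc1 at 113 CPM (next 46.8).

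Bub1 in PEM-HSC replicate 1 was at 59.3 CPM, above the next library at 21.4 CPM. In MUL-HSC, Kif11 in replicate 3 was at 0 CPM, below the next library at 33.2 CPM. Kif2c in MUL-HSC replicate 4 was at 5.197 CPM, while the other MUL-HSC libraries had no count.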

How the results depend on the processing

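Across 22 results and 412 alternative values, 396 kept their direction and their side of the threshold or moved by less than an allowance. The allowance was 1.35 for the median log2 fold changes, the SD over libraries for the summed CPM and the SD over members for the spread. That 1.35 exceeds the size of each median in the main fit, so the count says little about how steady those medians are. Spike-in scaling gave positive medians of the members in PLT-HSC against MUL-HSC (0.12) and PEM-HSC against MUL-HSC (0.17) and a value of 0.24 for Nusap1 in PLT-HSC against MUL-HSC; the cause was not tested. Leaving out 1 library at a time gave 0 to 1 called members in PLT-HSC against MUL-HSC, and medians from -2.87 (without PLT-HSC replicate 3) to -0.27 there, from -2.90 to -0.078 in PLT-HSC against PEM-HSC and from -0.52 (without PEM-HSC replicate 4) to 0.18 (without MUL-HSC replicate 2) in PEM-HSC against MUL-HSC. The median SD of the members then ran from 0.62 to 1.81 in MUL-HSC and from 0.75 to 3.24 in PLT-HSC, and a pseudocount of 5 CPM gave 1.55 in PLT-HSC. Over all genes, edgeR called 6, 1 and 0 genes in PLT-HSC against MUL-HSC, PEM-HSC against MUL-HSC and PLT-HSC against PEM-HSC, while DESeq2 called 249, 175 and 93 and voom 0, 1 and 1, none of them a member. With the number of detected genes as a covariate the medians were -1.68, -0.65 and -1.03, and voom gave -1.76, -0.29 and -1.55. Over 10 pairs of libraries with the same replicate number the correlation of deviations was -0.13 to 0.05, above 0.1 in 0. Pairs with different numbers were not set beside them, so these values do not decide whether replicate numbers pair the libraries. A fit with the replicate block called 0 members in each comparison (2, 0 and 0 of all genes) with medians of -1.47, -0.41 and -0.97. Depth limits the members at 0 to 3 counts or fewer per library.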
